A study of Mus musculus with 36 samples.

Results

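Hematopoietic stem cells carrying a single functional copy of Il27ra were compared with stem cells in which the gene was intact, in mice under angiotensin II (Ang II), a peptide hormone that raises blood pressure and provokes aortic aneurysm in Apoe−/− mice. The libraries were chosen by their labels, as the long-term hematopoietic stem cells (LT-HSC) of Ang II animals of these 2 genotypes, and they are 6 of the 36 RNA sequencing libraries of the series. All animals lacked Apoe, controls included: 4 libraries are Apoe−/−Il27ra+/− (heterozygous below) and 2 are Apoe−/− (labelled WT, intact below). By the study's legend to its sequencing figure the mice ate a Western diet for 12 weeks and received Ang II during the last 2, and by its methods the diet began at 8 weeks of age. For each library 5000 cells were sorted from bone marrow as lineage-negative, positive for Sca-1, c-Kit and CD150 and negative for CD48. The series also holds Apoe−/−Il27ra−/− (knockout) animals, animals infused with saline (PBS), and another sorted population, negative for CD150 and positive for CD48, which the labels call ST-HSC and which is named HPC-1 here after its gate. The labels number the replicates of each group but give no sex, cage or sorting day, and do not say whether a library came from a single mouse. The study's legend gives 2 Apoe−/− and 4 Apoe−/−Il27ra+/− mice for its LT-HSC, as many as the libraries compared here. It also gives 3 knockout mice, where the series holds 4 Ang II knockout LT-HSC libraries. The legend covers Ang II and PBS together, and the PBS LT-HSC hold 1 intact and 3 heterozygous libraries. The equal numbers therefore do not show that each library came from 1 mouse. Its methods name the gender of the mice as a factor in its own test. The spread given below is the spread between libraries.

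IL-27 is a cytokine assembled from the products of Il27 and Ebi3. Its receptor pairs the IL-27Rα chain, encoded by Il27ra, with gp130, encoded by Il6st and shared with IL-6 and related cytokines, and signals through JAK kinases and STAT proteins such as STAT3. LT-HSC stand at the top of blood formation: most are quiescent at rest, and inflammatory cytokines can drive them into cycle and toward myeloid output.

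The intact libraries held 2244419 counts (replicate 1) and 2077699 (replicate 2), and the heterozygous libraries 2183648, 2568392, 4512346 and 6861078 (replicates 1 to 4). Totals over the whole series ran from 1980283 to 6861078, so that both intact libraries and heterozygous replicates 1 and 2 lay near its lower end. Levels are given in CPM, counts normalized to library size with TMM scaling. A floor of 3 counts per library, used for folds against a group at 0, corresponds to 1.51 and 1.54 CPM in the intact and 1.47, 1.18, 0.66 and 0.412 CPM in the heterozygous libraries. For a fold the floor is averaged over the libraries of the group, and floors and counting intervals cover counting error only. A ratio of pooled counts, with its interval, is scaled for the summed normalized library sizes of the groups. It therefore differs from the ratio of the raw counts. After each library was thinned to 1980283 counts, 13940 and 13612 genes had a count in the intact libraries and 14940, 16611, 17602 and 16158 in the heterozygous ones. The intact libraries thus registered fewer genes at equal total counts than any heterozygous library. The depth left for most genes still differed, since the 20 most abundant genes held 20.03% and 16.1% of counts in the intact and 16.7%, 15.8%, 11.6% and 8.19% in the heterozygous libraries.

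Il27ra (ENSMUSG00000005465, minus strand of chromosome 8, 84030294 to 84042589 in mm10) was counted at 44.7 and 53.4 CPM in the intact LT-HSC after Ang II. In the heterozygous LT-HSC it was counted at 31.4, 26.7, 28.4 and 33.9 CPM, and every one of these lay below both intact libraries. The means were 49.0 ± 6.14 CPM (SD, n = 2) and 30.1 ± 3.19 CPM (SD, n = 4), a 1.63-fold lower level in heterozygous cells. In the Ang II knockout LT-HSC the transcript was counted at 17.1, 12.5, 16.9 and 19.7 CPM, lower again than in any heterozygous library, so that in LT-HSC the order of Il27ra levels followed the labelled gene dose after Ang II. Across all genes the test did not call Il27ra (log2 fold change −0.70, SE 0.32, adjusted p = 0.296, lower in 4 of 4 heterozygous libraries). An exact permutation test of 4 against 2 libraries that doubles the smaller tail cannot give a two-sided p below 0.133.

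**Figure D1:**
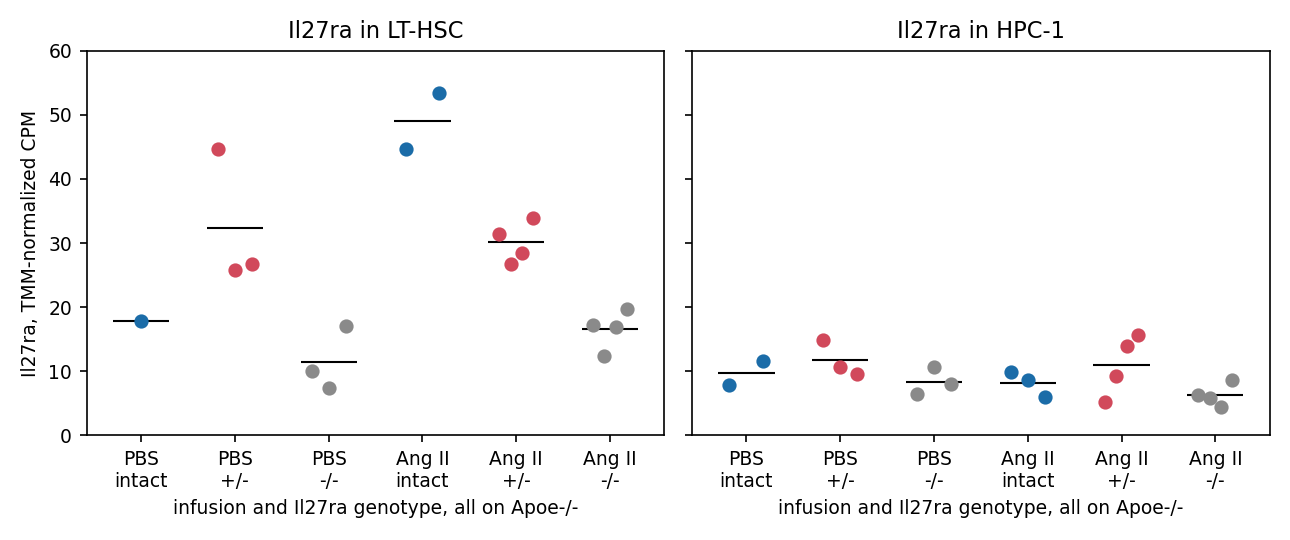
Il27ra level (TMM-normalized CPM, linear axis) in LT-HSC (left) and HPC-1 (right) by infusion and Il27ra genotype, with 1 point per library and a black line at the group mean. After Ang II the 2 intact LT-HSC libraries sit at 44.7 and 53.4 CPM, the 4 heterozygous libraries between 26.7 and 33.9 CPM and the 4 knockout libraries between 12.5 and 19.7 CPM.

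Among PBS animals the order of Il27ra levels did not follow the labels. The library labelled LT-HSC, PBS, WT, the sole library of its group, had 17.8 CPM of Il27ra, above the PBS knockout libraries (9.98, 7.33 and 17.03 CPM) and below the PBS heterozygous libraries (44.6, 25.8 and 26.8 CPM), within the range of the Ang II knockout libraries. It takes no part in the contrast described here. As the sole library of its group it leaves no residual for the shared estimate of the spread, but it enters the scaling and sets the smallest group size for the low-count filter. Without it, in a fit chosen after seeing the data, 13603 genes were tested in place of 16365 and 145 differed between heterozygous and intact LT-HSC after Ang II, 107 higher and 38 lower, beside 136, 100 and 36 with it. HPC-1 carried less Il27ra than LT-HSC, at 9.88, 8.59 and 6.02 CPM in the intact and 5.22, 9.19, 13.9 and 15.6 CPM in the heterozygous animals after Ang II, so that the ranges overlapped and the order was not that of the labels. In PBS HPC-1 the intact libraries had 7.89 and 11.6 CPM, the heterozygous 14.9, 10.7 and 9.59 CPM and the knockout 6.5, 10.7 and 7.94 CPM, again overlapping.

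The sorted cells carried the transcripts of LT-HSC. The 19 LT-HSC markers listed, among them Hlf, Mecom, Slamf1 (the CD150 antigen), Procr and Vwf, were all counted, and they summed to 4423 and 3765 CPM in the intact and 4069.9, 5117, 5152 and 4596 CPM in the heterozygous libraries. In the Ang II HPC-1 of the same genotypes the sum stayed between 1056 and 1889.8 CPM. Cd48, the antigen against which the cells were gated, was at 0 in both intact libraries and at 0.49, 0, 0 and 1.92 CPM in the heterozygous ones. The 17 progenitor markers, which include Mpo, Elane and Flt3, summed to 295 and 319 CPM in the intact and 454, 370, 163 and 314 CPM in the heterozygous LT-HSC, against 6235 to 8893 CPM in the Ang II HPC-1 of the same genotypes. Kit, the receptor for stem cell factor and the most abundant LT-HSC marker per length, was at 930.1 and 877 CPM and at 953, 1271, 893 and 827 CPM. None of the 19 LT-HSC or 17 progenitor markers passed the test between the genotypes described below (0.831% of all genes tested did), and the LT-HSC markers had a median log2 fold change of 0.28 beside 0.09 for all genes.

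Among the knockout LT-HSC, which are in the fit but not in the contrast and so enter the scaling, the low-count filter and the shared estimate of the spread, 3 libraries stood apart in cell markers. PBS knockout replicate 2 summed to 1511 CPM over the LT-HSC markers and 6822 CPM over the progenitor markers, as in HPC-1. Ang II knockout replicate 2 summed to 2911 CPM and 2393 CPM, with 8851 CPM over the neutrophil and 3548 CPM over the erythroid markers. PBS knockout replicate 3 summed to 4215 CPM and 729 CPM, with 1441 CPM over the neutrophil and 3428 CPM over the erythroid markers. The number of genes that differed between heterozygous and intact LT-HSC, 136 with all libraries in the fit, was 197, 166 and 90 without each of these in turn. It was 357 (237 higher, 120 lower) without both replicates 2 and 292 (186 higher, 106 lower) without all 3. Only the fit without PBS knockout replicate 2 was planned, and the other 4 were chosen after seeing the data. In the order given, these fits tested 16111, 16256, 16090, 16205 and 15881 genes in place of 16365. Of the 136 genes 89 differed again without PBS knockout replicate 3 and 132 without all 3.

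The heterozygous group was mixed in sex-linked expression. Xist, the RNA that coats the inactive X chromosome, was at 48.2 and 71.3 CPM in the intact libraries and at 19.6 and 13.4 CPM in heterozygous replicates 1 and 2, but at 4067 and 3831 CPM in heterozygous replicates 3 and 4. The Y-linked genes Ddx3y, Eif2s3y, Kdm5d and Uty were at 0 in those 2 libraries and between 40.02 and 96.1 CPM in the other 4. Heterozygous replicates 3 and 4 are also the deepest of the 6, so that this split and depth cannot be told apart. With the Y-linked level as a covariate 79 genes differed, 59 higher and 20 lower in heterozygous cells, and among libraries under 4000000 counts, which leaves heterozygous replicates 1 and 2, 16 differed, 6 higher and 10 lower, in place of 136, 100 and 36. That depth limit also took PBS heterozygous replicate 3, PBS knockout replicates 2 and 3 and Ang II knockout replicates 3 and 4 out of the fit. The fall to 16 therefore cannot be assigned to the heterozygous libraries left out. None of the 5 sex-linked genes passed the test between the genotypes (Xist adjusted p = 0.545, log2 fold change 5.05, higher in 2 of 4 heterozygous libraries).

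The comparison asks what loss of a single Il27ra allele changes in LT-HSC under Ang II. The genes lower in heterozygous LT-HSC were led by Dmbt1, Agr2, Muc2, Clca1, Lypd8 and Cdh17, genes of the intestinal epithelium and its mucus, which were well counted in both intact libraries and at or near 0 in the heterozygous ones. The genes higher in heterozygous LT-HSC, among them Ccng2, Rttn, Sc5d, Washc4 and Dynlt1b, were mostly of low level in the intact libraries, where 29 of the 100 had no count. The lists of IL-27 receptor pathway, interferon-induced, cell cycle and Trp53 target genes held no gene that differed, where 0.831% of all genes tested did. This does not show these genes unchanged, as Il27ra itself, 1.63-fold lower on average, did not pass. By edgeR's quasi-likelihood test at a 5% false discovery rate, 136 of 16365 genes tested passed (0.831%), 100 of them higher (0.611%) and 36 lower (0.22%) in heterozygous cells, and only these are said to differ. Without adjustment 2563 genes had p under 0.05.

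The number of genes depended on single libraries. Without intact replicate 1 it was 565 and without intact replicate 2 it was 207, with the lone intact library then assumed to vary as the other groups do; without heterozygous replicates 2, 3 or 4 it was 65, 58 or 53. Of the 136 genes, 94 differed again without intact replicate 1 and 50 without intact replicate 2, and 30 in a fit of the 6 compared libraries alone, which gave 37 genes. The intact libraries were less like each other than the heterozygous ones: across genes (which are not independent replicates) the correlation of log levels was 0.900 between the intact libraries, 0.910 to 0.925 between the genotypes and 0.946 to 0.970 among the heterozygous libraries. All 136 genes had groups that did not overlap, as did 3700 (22.6%) of all genes tested.

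Among the 36 lower genes, 18 belonged to the lists of intestinal epithelial genes, and no gene of those lists was higher. Of all genes tested, 49 (0.299%) belonged to these lists. The lists were chosen with earlier results of these data known, so that this overlap is in part set by that choice and was not tested. Dmbt1 (ENSMUSG00000047517, chromosome 7, 131032053 to 131121630, plus strand), a secreted scavenger-receptor glycoprotein of mucosal surfaces, had the smallest adjusted p of the comparison. It was counted at 129.5 and 199.1 CPM in the intact libraries, while heterozygous replicates 1, 2 and 4 had none and replicate 3 had 0.66 CPM. From 646 counts against 3, the pooled counts, scaled for library size, stood in a ratio of 897 (95% counting interval 306 to 4361), and the adjusted p was 1.88e-06. In the knockout LT-HSC after Ang II Dmbt1 was at 0 in all 4 libraries.

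Goblet cells secrete intestinal mucus, and 6 of the 15 genes tested of their list were lower, Dmbt1 among them. Agr2 (chromosome 12, 35992907 to 36004087, plus strand), an endoplasmic reticulum protein needed for mucin production and a gene the study names, was at 30.1 and 23.6 CPM in the intact libraries and at 0 in all 4 heterozygous libraries, at least 28.9-fold lower (adjusted p = 0.000483). Muc2, the main gel-forming mucin of intestinal mucus, was at 55.7 and 42.6 CPM against 0 in all 4, at least 52.8-fold lower (adjusted p = 0.00193, but 0.301 by DESeq2). Clca1, a protein that goblet cells secrete into mucus, was at 54.7 and 62.1 CPM against 0 in all 4, at least 62.8-fold lower (adjusted p = 0.00126). In each of these genes the intact libraries were well separated from the heterozygous ones, and the knockout libraries after Ang II also stood at 0, apart from 0.21 CPM of Agr2 in knockout replicate 3. Spink4 was at 13.6 and 21.6 CPM and again at 0 in all 4 heterozygous libraries (at least 18.9-fold lower), and Fcgbp, a mucus protein, at 18.6 and 70.8 CPM against 0, 0.39, 1.76 and 0 CPM (at least 48-fold lower, the heterozygous mean being under the floor). These last genes depended on single libraries: without intact replicate 2 and heterozygous replicates 2 and 4 in turn the adjusted p was 0.0986, 0.0613 and 0.0823 for Spink4 and 0.125, 0.103 and 0.0947 for Fcgbp, and it was 0.0727 for Spink4 without heterozygous replicate 3 and 0.0771 for Fcgbp without heterozygous replicate 1. Spink4 was also lost by DESeq2 (0.401), and with a block by replicate number (0.188 and 0.0737) or the Y-linked covariate (0.125 and 0.0868) neither Spink4 nor Fcgbp passed. These 6 are the members of the list of 17 goblet cell and epithelial defence genes that fell, of 15 tested. The list summed to 348 and 457 CPM in the intact and 9.32, 21.2, 26.8 and 16.1 CPM in the heterozygous libraries, and its median log2 fold change was −6.21, or −3.37 with genes at 0 in a group set at their bound, beside 0.09 and 0.00 for all genes tested.

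**Figure D2:**
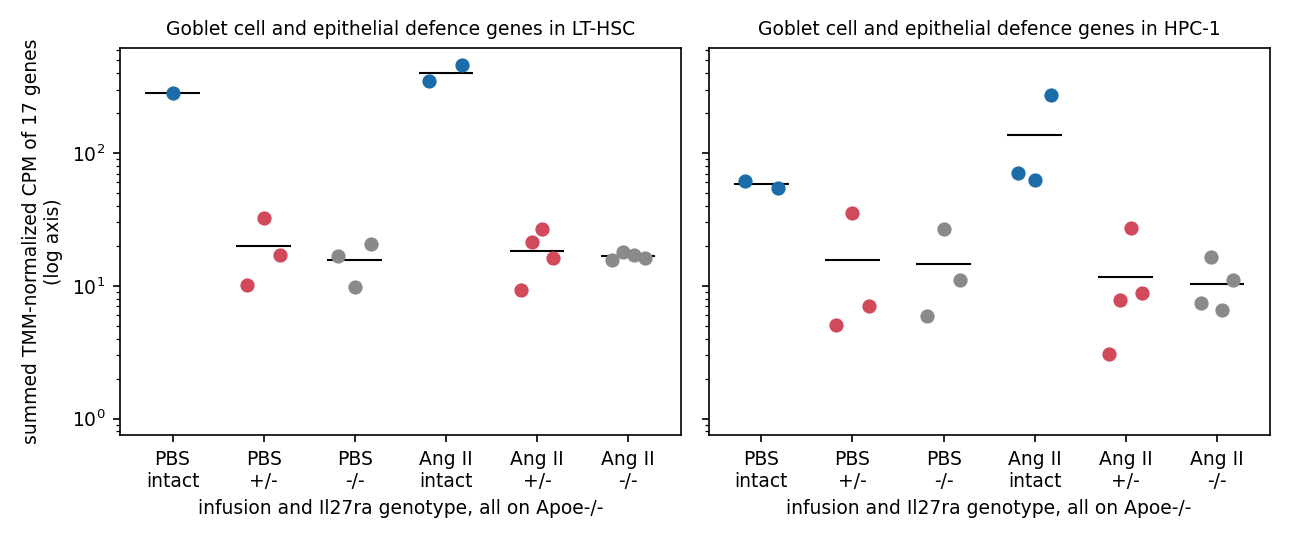
Summed level of the 17 genes of goblet cells and epithelial defence (TMM-normalized CPM, log axis) in LT-HSC (left) and HPC-1 (right) by infusion and Il27ra genotype, with 1 point per library and a black line at the group mean. After Ang II the intact LT-HSC libraries sit at 348 and 457 CPM and the heterozygous libraries between 9.32 and 26.8 CPM.

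Genes of absorptive cells of the colon moved the same way, with 4 of 8 tested lower and a list of 11 genes that summed to 257 and 315 CPM in the intact and 14.2, 9.04, 11.0 and 5.21 CPM in the heterozygous libraries. Lypd8, a surface protein that keeps bacteria away from the colonic epithelium, was at 46.7 and 101.1 CPM in the intact libraries and at 0 in all 4 heterozygous libraries, at least 79.4-fold lower (adjusted p = 0.00518, but 0.266 by DESeq2 and 0.147 with the Y-linked level as a covariate). Clca4b was at 42.7 and 33.9 CPM against 0 in all 4 (at least 41.1-fold lower), and summing it with its close relatives Clca4a and Clca4c gave 61.7 and 51.8 CPM against 0. Clca4a was at 19.1 and 17.96 CPM, and Car4, a membrane-bound carbonic anhydrase, at 14.6 and 14.9 CPM, both with 0 in the 4 heterozygous libraries (at least 19.9-fold and 15.8-fold lower). Neither passed with any of the 6 libraries left out: without intact replicates 1 and 2 the adjusted p was 0.0553 and 0.0764 for Clca4a and 0.0862 and 0.116 for Car4, and without heterozygous replicates 1 to 4 it was 0.0575, 0.0725, 0.0852 and 0.0975 for Clca4a and 0.0691, 0.0911, 0.0993 and 0.109 for Car4. The median log2 fold change of the list was −8.18, or −4.15 with genes at their bound.

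Of the 26 general epithelial genes, 19 were tested and 8 were lower, with a median log2 fold change of −4.54 (−4.10 with genes at their bound). Cdh17, the liver-intestine cadherin, was at 24.1 and 51.3 CPM against 0, 0, 0.22 and 0 CPM. Its ratio of pooled counts, scaled for library size, was 617 (95% counting interval 109 to 24511). Dsp, the desmosomal protein desmoplakin, kept a level in heterozygous cells: 69.3 and 77.5 CPM against 15.7, 8.25, 8.58 and 8.37 CPM, 7.18-fold lower (log2 fold change −2.86, SE 0.42, adjusted p = 0.0025). The keratin Krt8 was at 27.1 and 35.4 CPM against 2.45, 2.75, 0.88 and 0.96 CPM, 17.8-fold lower, and the galectin Lgals4 at 32.1 and 60.03 CPM against 5.89, 5.11, 8.58 and 10.2 CPM, 6.20-fold lower. For each of these genes the lower intact library was above the highest heterozygous library. The keratins Krt19 and Krt20, the tetraspanin Tspan1 and the adhesion molecule Epcam completed the 8: Krt19 was at 23.1 and 19.5 CPM against 0, 0, 0.22 and 0 CPM (ratio of pooled counts 349.9, interval 61.1 to 13982) and Krt20 at 26.6 and 15.4 CPM against 0 in all 4 (at least 22.6-fold lower). Tspan1 was 17.1-fold lower (16.5 against 0.965 CPM on average) and Epcam 14.9-fold lower (20.6 against 1.38 CPM). Single libraries decided some of these calls. Without intact replicate 2 the adjusted p was 0.0515 for Lgals4, 0.0957 for Tspan1 and 0.116 for Epcam, and without intact replicate 1 it was 0.0581 for Krt20. Without heterozygous replicates 1 to 4 it was 0.061, 0.0779, 0.0569 and 0.0959 for Tspan1 and 0.0546, 0.0855, 0.0521 and 0.104 for Epcam, and without replicates 2 to 4 it was 0.0544, 0.0645 and 0.0724 for Krt19 and 0.0587, 0.07 and 0.0823 for Krt20. Other alternatives also ended calls: the adjusted p was 0.319 and 0.315 for Krt19 and Krt20 by DESeq2 and 0.188 and 0.159 with a block by replicate number, 0.073 and 0.0754 for Epcam and Tspan1 with the Y-linked covariate, and 0.154 and 0.0904 for Krt8 and Cdh17 in libraries under 4000000 counts. Of the list's other genes, Cdh1 was at 51.7 and 42.6 CPM against 0, 0, 0.88 and 0 CPM and did not pass (adjusted p = 0.108).

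Not all genes of the intestine had this pattern. Muc13, the most abundant of the 26 per length, was at 544 and 543 CPM in the intact and 641, 513, 602 and 595 CPM in the heterozygous libraries, and was also counted at 343 to 628 CPM in Ang II HPC-1 of the same genotypes. Krt18, St14 and Galnt12 also had counts in all 6 libraries, and 10 of the 75 genes of the 5 intestinal lists were above the floor in all 4 heterozygous libraries. These 10 include Dsp, Krt8 and Lgals4, which were lower in heterozygous cells. The transcription factors that define intestinal epithelium had few or no counts in the intact libraries too: Cdx1 at 3.01 (above the floor of 1.51 CPM) and 0 CPM, Cdx2 at 0 and 0.51 CPM. Guca2b, Phgr1, Reg4, Fabp1, Fabp6 and Alpi, which mature intestinal cells express, had no count in any of the 6. Tff3, a goblet cell peptide, was at 6.53 and 0 CPM, the claudin Cldn3 at 0.50 and 2.05 CPM, and the goblet cell transcription factor Spdef at 2.51 and 0 CPM. Of the 15 genes of small intestinal absorptive cells 4 were tested and none differed (median log2 fold change −0.29; Anpep, the most abundant, at 6.02 and 10.8 against 5.89, 13.8, 9.02 and 7.68 CPM). Of 6 Paneth cell genes 3 were tested and none differed, although both intact libraries were above all heterozygous libraries in all 3. Of all genes tested 0.831% differed, so that none among so few genes is near that share. Lyz1, the most abundant of them, was at 17.1 and 12.8 CPM against 0, 0.79, 1.76 and 1.37 CPM (adjusted p = 0.151).

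Over the 5 intestinal lists together, 65 of 75 genes had a count in the 6 libraries, 49 were tested and 18 were lower, and 34 had both intact libraries above all heterozygous ones, as did 1496 (9.14%) of all genes tested. Their summed level was 1766 and 1917 CPM in the intact and 812, 702, 784 and 769.6 CPM in the heterozygous libraries, in each of which Muc13 was the largest term. The 18 lower genes alone summed to 655 and 894 CPM in the intact and 24.5, 18.9, 25.5 and 21.4 CPM in the heterozygous libraries. In bulk RNA, fewer cells of a type and less RNA per cell cannot be told apart. The part that RNA of intestinal cells may have in these differences was not tested.

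The other 18 lower genes belonged to none of the intestinal lists, which do not hold every gene that the intestine expresses. Absence from the lists therefore does not set a gene apart from the intestinal ones. The mucin Muc3 was at 24.1 and 20.5 CPM and Clca3b, a relative of Clca1, at 21.6 and 26.7 CPM, each with 0 in all 4 heterozygous libraries (at least 23.97-fold and 25.9-fold lower). With a block by replicate number their adjusted p was 0.103 and 0.106, and in libraries under 4000000 counts 0.147 and 0.072. Myh11, the myosin heavy chain of smooth muscle, was at 11.6 and 36.9 CPM against 0.49, 0, 0 and 0 CPM (ratio of pooled counts 396, 95% counting interval 69.3 to 15792), with an adjusted p of 0.103 without intact replicate 2 and 0.0525 without heterozygous replicate 4. It was the only gene of 7 tested for endothelium and smooth muscle that differed. Of the 7, 5 had a log2 fold change below 0, and the median was −2.03 beside 0.09 for all genes tested. The smooth muscle actin Acta2 was at 11.0 and 1.54 CPM against at most 0.79 CPM, and the endothelial Pecam1, the most abundant of the list, at 81.8 and 81.6 against 111.4, 71.5, 93.5 and 79.7 CPM. Of the 36 lower genes, 12 had no count in any heterozygous library, and the median level was 28.4 CPM in the intact and 0.144 CPM in the heterozygous group. Their number was 129 without intact replicate 1 and 15, 16 and 13 without heterozygous replicates 2, 3 and 4. Dmbt1, Clca4b, Agr2, Clca1 and Dsp differed under every alternative run.

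The genes higher in heterozygous LT-HSC lay on 20 chromosomes (all genes tested on 22), and no grouping of them by function was tested. Ccng2 (chromosome 5, 93267257 to 93276231, plus strand), which encodes cyclin G2, an unconventional cyclin that restrains proliferation, was counted at 3.01 and 7.70 CPM in the intact and 46.1, 22.4, 34.8 and 28.5 CPM in the heterozygous libraries. The lowest heterozygous library was above both intact libraries, and the mean was 6.16-fold higher (log2 fold change 2.61, SE 0.40, adjusted p = 0.00356). Rttn, which encodes rotatin, a protein of centriole assembly, was at 12.1 and 6.16 CPM against 49.5, 32.2, 44.2 and 31.01 CPM, 4.31-fold higher (log2 fold change 2.10, SE 0.33, adjusted p = 0.0042). Washc4, a subunit of the WASH complex that builds actin on endosomes, was at 41.2 and 36.4 CPM against 90.8, 75.5, 89.1 and 94.4 CPM, 2.25-fold higher (log2 fold change 1.17, SE 0.19, adjusted p = 0.00518). Washc4 and Zkscan3, a zinc finger repressor of autophagy genes, had the highest levels in intact cells among the 12 named higher genes: Zkscan3 was at 46.2 and 33.9 CPM against 138.3, 141.9, 93.3 and 81.8 CPM, 2.84-fold higher (adjusted p = 0.00518, and 0.0531 without intact replicate 2).

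Of 23 cholesterol synthesis genes 2 were higher (0.611% of all genes tested were). Sc5d, a late enzyme of cholesterol synthesis, was at 1.00 and 1.03 CPM in the intact libraries and at 21.6, 14.2, 21.1 and 7.82 CPM in the heterozygous ones, at least 10.6-fold higher with the intact mean, which is under the floor, set at it (log2 fold change 3.94, SE 0.63, adjusted p = 0.00518). Mvk, the mevalonate kinase of the early pathway, was at 0.50 and 0 CPM against 8.83, 8.65, 5.28 and 5.63 CPM, a ratio of pooled counts of 25.2 (95% counting interval 4.43 to 1005) at an adjusted p of 0.0216 (0.0642 without intact replicate 2, 0.0537 by DESeq2, 0.0737 with a block by replicate number, 0.149 in the compared groups alone and 0.545 in libraries under 4000000 counts). Both rest on 4 or fewer counts in the intact group. All 23 genes of the list were tested, and no other differed; the median log2 fold change of the list was 0.11, and its sum was 876 and 982 CPM in the intact and 1068, 958, 1186 and 794 CPM in the heterozygous libraries. Srebf2, the transcription factor that controls the pathway and its most abundant member, was at 189.7 and 222 CPM against 249, 293, 282 and 235 CPM (adjusted p = 0.335). Of the named genes in no list, Mlycd, which degrades malonyl-CoA, was at 3.01 and 3.08 CPM against 15.2, 13.8, 16.5 and 20.9 CPM, 5.45-fold higher, and Far2, which reduces fatty acyl-CoA to alcohols, had no count in the intact libraries and 8.83, 10.6, 9.24 and 9.19 CPM in the heterozygous ones, at least 6.22-fold higher.

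Several of the highest-ranked genes had no count in either intact library. Dynlt1b, a dynein light chain, was at 0 and 0 against 16.7, 9.43, 11.2 and 21.8 CPM, at least 9.71-fold higher (adjusted p = 0.000261). It has near-identical relatives, and summed with Dynlt1a, Dynlt1c and Dynlt1f the family was at 33.6 and 45.7 CPM against 48.1, 53.5, 66.6 and 74.7 CPM, for which the test no longer passed (log2 fold change 0.62, adjusted p = 0.196, the highest of a range that starts at 4.83e-10 over the alternatives run). Zfp58, a zinc finger gene, was at 0 and 0 against 14.2, 11.8, 18.03 and 7.0 CPM (at least 8.38-fold higher, adjusted p = 0.00169). Ttc30b, a protein of transport within cilia, was at 0 and 0 against 18.2, 8.65, 11.0 and 8.65 CPM (at least 7.63-fold higher, adjusted p = 0.0025). Lysmd3 was low but not absent, at 2.01 and 2.05 CPM against 9.32, 21.2, 24.2 and 24.3 CPM (9.73-fold higher, adjusted p = 0.00376). Trp53rkb, a kinase of the KEOPS complex, had 1 count in the intact group and was at 8.34, 9.83, 6.60 and 10.8 CPM in the heterozygous libraries. Its ratio of pooled counts, scaled for library size, was 36.3 (interval 6.41 to 1441).

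**Figure D3:**
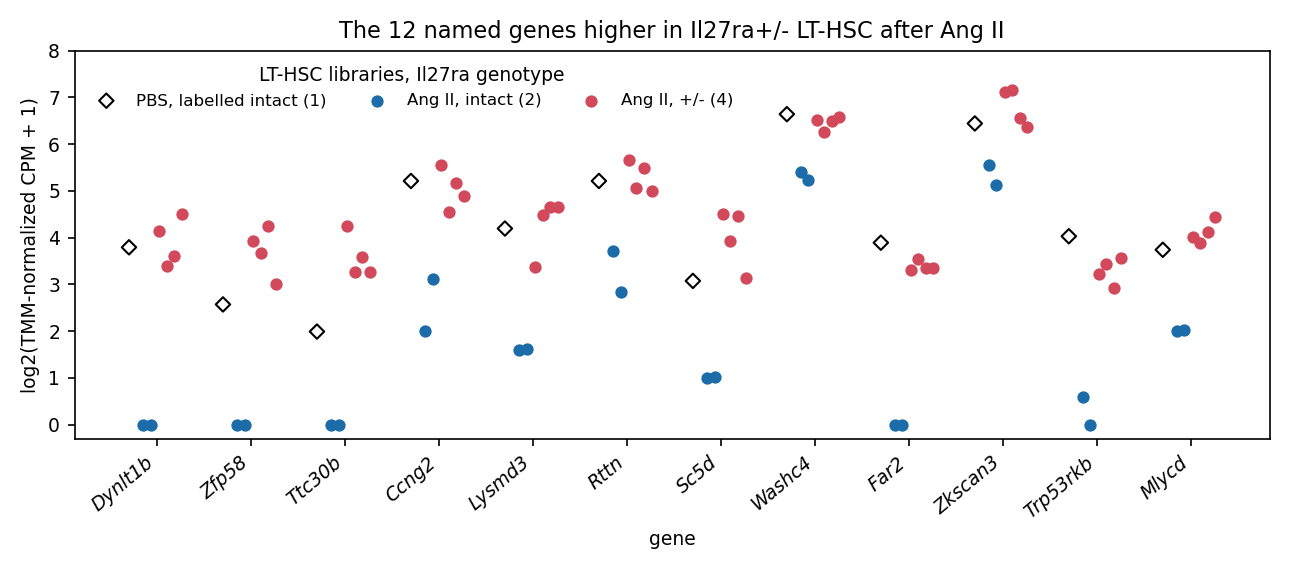
Level of the 12 named genes higher in heterozygous LT-HSC after Ang II (log2 of TMM-normalized CPM plus 1), with filled points for the 2 intact and 4 heterozygous Ang II libraries and an open diamond for the library labelled PBS, intact. For each gene the 4 heterozygous points lie above both intact Ang II points; Dynlt1b, Zfp58, Ttc30b and Far2 are at 0 in both intact libraries.

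As a group the 100 higher genes lay low in the intact libraries: their median level was 2.29 CPM there and 16.7 CPM in heterozygous cells, beside 16.95 and 17.8 CPM over all genes tested. For 29 of them both intact libraries were at 0, and for 42 both were at or under 3 counts, as was so for 2280 and 3002 of the 16365 genes tested. These genes were called for being higher in heterozygous cells, so low counts in the intact libraries are in part set by that selection. Over all genes, those with at most 1 count although their level in the other LT-HSC groups predicted at least 20 numbered 91 and 117 in the intact libraries and 53, 58, 83 and 114 in the heterozygous ones. As a share of the genes so predicted in each library they were 0.911% and 1.18% in the intact and 0.529%, 0.551%, 0.71% and 0.904% in the heterozygous libraries, so that both intact libraries were above all heterozygous ones. The part of such missing counts in the higher genes was not tested. Of the 100, 90 were protein coding (85.1% of all genes tested were), 5 were zinc finger genes by symbol (2.38% of all), 11 had no plain symbol (2623 of all 16365 had none), and they lay on 20 chromosomes (all genes tested on 22).

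The number of higher genes moved with single libraries and with the fit. It was 436 without intact replicate 1, 178 without intact replicate 2, and 50, 42 and 40 without heterozygous replicates 2, 3 and 4. A fit of the 6 compared libraries alone called 5 genes higher, among them Dynlt1b, Zfp58 and Ttc30b, and a fit of libraries under 4000000 counts called 6, among them Dynlt1b, Zfp58 and Zkscan3. By limma-voom with sample weights 0 genes were higher and 68 lower, with 1374 genes at p under 0.05.

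The IL-27 receptor pathway was measured in full: all 25 genes listed were tested and none differed (0.831% of all genes tested did), with a median log2 fold change of 0.00. The summed level was 2369 and 2326 CPM in the intact and 2391, 2358, 2338 and 2537 CPM in the heterozygous libraries. Il6st, the gp130 partner chain, was at 68.8 and 75.4 CPM against 96.1, 103.8, 104.7 and 84.8 CPM (adjusted p = 0.255). Below the receptor, Stat3 was at 266 and 281 CPM against 285, 278, 250.3 and 315 CPM. Its levels overlapped between the genotypes (adjusted p = 0.931). The feedback inhibitor Socs3 was at 16.6 and 11.3 CPM against 13.7, 11.8, 16.3 and 14.4 CPM. The phosphatase Ptpn6, the most abundant of the pathway per length, was at 222 and 251 CPM against 282, 219, 154 and 226 CPM. The ligand genes were low, Il27 at 1.00 and 0 CPM against at most 2.75 CPM and Ebi3 at 12.1 and 4.10 CPM against 0.49, 6.68, 10.1 and 8.65 CPM.

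Genes that interferons induce were expressed in every library, and none of the 29 tested differed (0.831% of all genes tested did), with a median log2 fold change of 0.05. They summed to 2488 and 2641 CPM in the intact and 2049.9, 2395, 2446 and 2574 CPM in the heterozygous libraries. B2m, their most abundant member, was at 599 and 718 CPM against 565, 756, 679.6 and 608 CPM, and Irf1 at 96.4 and 101.1 CPM against 100.6, 72.3, 60.9 and 66.0 CPM. Of the renin-angiotensin genes Agt, Ren1, Agtr1b and Agtr2 had no count in the 6 libraries, and Agtr1a, the Ang II receptor gene, was at 0 and 0 against 0, 3.54, 5.28 and 0.14 CPM. None of the 5 tested differed. Their median log2 fold change was 0.74, or 0.24 with genes at 0 in a group set at their bound, and 0 of the 5 were below 0. In 2 of them all heterozygous libraries were above both intact ones, as in 13.5% of all genes tested. Agtrap, which encodes a protein bound to that receptor, was at 59.2 and 58.5 CPM against 71.1, 81.0, 62.0 and 63.3 CPM.

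The lists of cell cycle genes, which do not include Ccng2, held no gene that differed among 14 of G1, 20 of DNA replication, 20 of mitosis and 6 cyclin-dependent kinase inhibitors tested, with median log2 fold changes of 0.04, −0.14, 0.03 and 0.42. Of all 16365 genes tested 0.831% differed, and 6912 had a log2 fold change below 0. Of the replication genes 15 of 20 were below 0, and their sum was 2430 and 3011 CPM in the intact and 2405, 1893, 2317 and 2373 CPM in the heterozygous libraries. Of the 6 inhibitors 0 were below 0, and their sum was 94.9 and 106 CPM against 131, 125.0, 149 and 118 CPM. In both lists the groups did not overlap, and no list sum was tested. Myc was at 254 and 225 CPM in the intact and 275, 202, 223 and 321 CPM in the heterozygous libraries, and Ccnd1, which encodes cyclin D1, at 41.7 and 40.5 CPM against 29.4, 52.7, 45.8 and 53.9 CPM. In both genes the intact values lay within the heterozygous range. The replication helicase gene Mcm3 was at 459.8 and 569 CPM against 369, 233, 240.2 and 322 CPM (adjusted p = 0.296, and 0.0223 without a filter on low counts), and Mki67, a marker of cycling cells, at 1279.5 and 1611 CPM against 1863, 1119.5, 1168 and 1342 CPM. Cdkn1b, which encodes p27, was at 59.7 and 70.3 CPM against 80.9, 83.3, 104.0 and 81.0 CPM (adjusted p = 0.294). Trp53 was at 129 and 178 CPM against 136, 123, 122 and 131 CPM, and its target Cdkn1a, which encodes p21, at 0.50 and 2.05 CPM against 2.45, 1.97, 1.32 and 1.24 CPM, close to the floor. None of the 22 tested genes of the Trp53 list differed (median 0.24).

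Immediate early genes, transcription factor genes that growth factors and stress induce within minutes, held no gene that passed. Of all genes tested 0.831% did, and the lists described here are short beside that share. Of 16 tested, 5 had all heterozygous libraries above both intact ones, as did 2204 (13.5%) of all genes tested, and the median log2 fold change was 0.93 beside 0.09 for all genes. Their sum was 937.2 and 929.7 CPM in the intact and 1323, 2191, 2100.2 and 1406 CPM in the heterozygous libraries. In the other LT-HSC the sum did not follow genotype: it was 938 CPM in the library labelled PBS, WT, 1228, 376 and 1757 CPM in the PBS heterozygous, 1833, 390.15 and 2434 CPM in the PBS knockout and 2719.98, 1027, 876 and 1057 CPM in the Ang II knockout libraries. Jun, the most abundant, was at 259 and 312 CPM against 532, 756, 718 and 443 CPM (adjusted p = 0.499). Fos was at 84.8 and 61.1 CPM against 73.1, 157, 199.0 and 122 CPM, so that its groups overlapped. None of 8 heat shock genes differed (median 0.13; Hspa8 at 2665 and 2869 CPM against 2979, 2459.6, 2852 and 2686 CPM), nor any of 6 abundant noncoding RNAs (median −0.02; Rn7sk at 16222 and 13747 CPM against 14871, 11752, 18972 and 6367 CPM). The table holds none of the 13 genes of mitochondrial DNA.

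Of the markers of other blood and marrow cells none passed the test, among 11 erythroid, 11 neutrophil, 8 macrophage, 2 B cell, 3 T and NK cell, 7 megakaryocyte, 5 mast cell and eosinophil, and 5 stromal genes tested. Of all genes tested only 0.831% passed, so that none among lists of this length is near that share. Hba-a2, an alpha globin gene, was at 23.1 and 57.0 CPM against 22.1, 145, 5.94 and 71.1 CPM, and the megakaryocyte chemokine Pf4 at 56.2 and 60.5 CPM against 90.3, 45.2, 380.5 and 166 CPM. The most abundant genes of the other lists were S100a9 in neutrophils (8.53 and 8.72 against 11.8, 8.65, 0.22 and 2.20 CPM), Lyz2 in macrophages (107.9 and 105.7 against 134, 127, 113 and 105.0 CPM) and Cd79b in B cells (20.1 and 7.18 against 10.3, 7.86, 11.7 and 11.8 CPM). The macrophage list had 0 of 8 tested genes below 0 and summed to 110.4 and 105.7 against 146, 139.9, 127 and 119 CPM, every heterozygous library above both intact ones. Its median log2 fold change was 5.16, or 0.03 with genes at 0 in a group set at their bound, and the tested genes other than Lyz2 and Cd68 were at 0 in both intact libraries. In T and NK cells, whose list summed to 6.02 and 3.59 against 10.3, 15.7, 28.2 and 13.5 CPM (median 1.83), Nkg7 was at 0.50 and 3.59 against 4.91, 5.50, 11.0 and 7.41 CPM, and in stroma Col1a2 at 1.00 and 4.10 against 7.36, 11.0, 22.4 and 28.7 CPM. The stromal list did not follow Col1a2: its median log2 fold change was −2.98, with 3 of 5 tested genes below 0, and Col1a1 was at 5.02 and 4.62 against 0, 0.39, 1.54 and 0.27 CPM. Among 6 myeloid and growth genes, which include Mpo, Csf3r and Klf5, none differed (median 0.22); Csf3r was at 92.9 and 55.4 against 116.8, 88.1, 51.3 and 105.1 CPM. Genes of hepatocytes, pancreatic acini, keratinocytes and airway summed to at most 2.05, 6.87, 12.6 and 0 CPM in the 6 libraries, with 0, 1, 1 and 0 genes tested and none different; Cela1 and Sbsn were the most abundant in acini and keratinocytes.

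In the other samples the lower and the higher genes parted. In the library labelled LT-HSC, PBS, WT, whose Il27ra level is given above, 29 of the 36 lower genes were above the range of the 3 PBS heterozygous libraries, as were 26.0% of all genes tested. Dmbt1 was at 67.7 CPM there against 0, 0.68 and 0.36 CPM, and the goblet cell list summed to 281 CPM against 10.1, 32.6 and 17.2 CPM. Of the 100 higher genes 41 were below the PBS heterozygous range in that library (30.0% of all genes) and 29 above it. Ccng2 was at 36.1 CPM there against 29.4, 29.2 and 36.2 CPM, and Rttn at 36.1 CPM against 42.6, 35.6 and 42.7 CPM. These values come from a single library and were not tested.

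HPC-1 of the Ang II animals gave 0 genes at a 5% false discovery rate by edgeR among 13199 tested, with 975 at p under 0.05, and 2 by DESeq2 and 11 by limma-voom with sample weights. The 36 genes lower in LT-HSC all had a lower mean in heterozygous than in intact HPC-1, with a median log2 difference of −2.57, as did 45.7% of all genes. The goblet cell list summed to 70.9, 62.3 and 273.8 CPM in the intact HPC-1 and 3.04, 7.87, 27.0 and 8.86 CPM in the heterozygous ones. In PBS HPC-1 it summed to 62.0 and 55.0 CPM in the intact, 5.09, 35.1 and 7.05 CPM in the heterozygous and 5.88, 26.7 and 11.1 CPM in the knockout libraries. In both cell types and under both infusions, each library labelled WT had a higher goblet cell sum than every heterozygous or knockout library of the same cells and infusion, including the library labelled LT-HSC, PBS, WT. Dmbt1 was at 24.7, 23.6 and 69.6 CPM against 0, 0, 13.9 and 0 CPM. The median log2 difference of the 100 higher genes in HPC-1 was 0.11, with 61 above 0 (50.8% of all genes were). The knockout and the heterozygous LT-HSC are each set against the same intact libraries, so their values are only given side by side: after Ang II Ccng2 was at 36.2, 36.4, 26.9 and 35.2 CPM and Rttn at 41.3, 30.0, 34.8 and 29.7 CPM in knockout LT-HSC.

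Whether the genotype difference itself differed between LT-HSC and HPC-1 was tested as an interaction over all 36 libraries. It passed for 21 of 18013 genes (0.117%), with 1827 at p under 0.05, and 17 of the 21 were also called in LT-HSC. It was 0 in the compared groups alone, 1 in libraries under 4000000 counts, 3 by limma-voom, 8 after thinning and 10 with a block by replicate number, but 58 by DESeq2 and 129 without a filter. The number was 97 without the intact LT-HSC replicate 1, 13, 12 and 9 without heterozygous LT-HSC replicates 1, 2 and 3, 12 and 10 without intact HPC-1 replicates 1 and 2, and 8 without heterozygous HPC-1 replicate 2. Named genes among them were Lysmd3 (difference of log2 fold changes 3.63, SE 0.66, adjusted p = 0.0149), Rttn (1.90, SE 0.41, adjusted p = 0.042), Sc5d (4.14, SE 0.91, adjusted p = 0.046) and Zfp58 (8.07, adjusted p = 0.0477). In HPC-1 Rttn was at 36.9, 38.3 and 21.9 CPM in the intact and 38.7, 41.1, 26.2 and 39.3 CPM in the heterozygous libraries, and Sc5d at 10.5, 12.9 and 12.5 CPM against 12.2, 9.19, 8.44 and 10.4 CPM. Zfp58 was at 11.6, 9.51 and 0 CPM against 8.70, 14.9, 4.64 and 9.47 CPM. Intact HPC-1 replicate 3 had no count for 17 of the genes higher in heterozygous LT-HSC, against 1 and 0 in replicates 1 and 2. Its share of genes with at most 1 count where 20 were predicted was 2.24%, the largest of the series. For the lower genes the interaction did not pass: it was −5.97 for Dmbt1 (adjusted p = 0.408), −4.16 for Agr2 (adjusted p = 0.477) and 1.2 for Krt8 (adjusted p = 0.865).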

How the data were processed

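The values are the deposited expected counts per gene, which the authors made with RSEM from paired-end reads of stranded total RNA libraries aligned to mm10. The labels name Bowtie2 and RSEM 1.2.31, and the study's methods another aligner and RSEM version. All 38887 genes and 36 libraries were read; the values were whole, and 37570 identifiers had a symbol (99.63% of counts). Symbols and positions came from the GENCODE annotation of the same build. In R 4.3.3, edgeR 4.0.16 fitted a robust quasi-likelihood model after TMM scaling and filterByExpr, to the 17 LT-HSC libraries in 6 groups without covariates, to the 19 HPC-1 libraries likewise and, for the interaction, to all 36 in 12 groups. P-values were adjusted by Benjamini and Hochberg over all genes tested. SE is the absolute log2 fold change over the square root of F. Checks used DESeq2 1.42.0 and limma 3.58.1.

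Genes named are Il27ra; up to 12 genes per direction with the smallest adjusted p, with groups that do not overlap and a plain symbol; every called list member, up to 8 per list and direction; the most abundant member of each list per length; genes the study names (Agr2, Trp53, Cdkn1a, Myc, Ccnd1); and sex-linked genes. Other list members are given as levels only. The 35 gene lists cover IL-27 signalling, interferon, angiotensin, markers of marrow, intestinal and other cells, cell cycle, Trp53, stress, noncoding, cholesterol and sex-linked genes. Members and lists were chosen with earlier results of these data known. Alternatives changed the scaling, filter, tool, covariates, replicate block, depth or the libraries in the fit, and their values are given in the closing section.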

Additional observations from a re-analysis of the deposited data

Results flagged for a closer look

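Among the 4 heterozygous LT-HSC libraries after Ang II, 7 of 59 named genes and 1 of 34 list sums had a library far from the others, by a gap to its nearest neighbour, as a share of the group's range, above Dixon's 95% critical value; chance gives such a gap in about 1 in 20 groups. For Dmbt1 (0.66 CPM in replicate 3), Cdh17 and Krt19 (0.22 CPM in replicate 3), Myh11 (0.49 CPM in replicate 1) and Prg2, an eosinophil granule gene (20.6 CPM in replicate 4), the other 3 libraries were at 0, so that the gap was the whole range (1.00). Cdh17, Krt19 and Myh11 rest there on 1 count and Dmbt1 on 3 counts, no more than the floor, and their gap shows no library far in level, while Prg2 in replicate 4 is above the floor. The gap was 0.957 for Dsp, highest in replicate 1 at 15.7 CPM, and 0.896 for Cdkn1b, highest in replicate 3 at 104.0 CPM. For the summed mast cell and eosinophil genes it was 0.927, from 1.47, 3.54, 3.52 and 29.6 CPM, of which replicate 4 owed most to Prg2.

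The heterozygous minus intact difference after Ang II was itself different between LT-HSC and HPC-1 for 21 genes by the interaction test, among them the named genes Lysmd3 (by 3.63 on the log2 scale), Rttn (by 1.90), Sc5d (by 4.14) and Zfp58 (by 8.07, a fitted value for a gene at 0 in the intact LT-HSC).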

How the results depend on the processing

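All 136 genes kept their sign wherever they were tested, and 5 of 34 called named genes passed under every alternative; of 35 named genes past no threshold, 22 changed sign under at least 1 and 7 passed under at least 1: with no filter on low counts Xist (adjusted p = 2.24e-67), Prg2 (5.91e-07), Pf4 (4.86e-06), Jun (0.0005), Col1a2 (0.00503) and Mcm3 (0.0223), and by limma-voom Lyz1 (0.0103). Mcm3 also passed without knockout LT-HSC replicates 2 of both infusions (0.0228), and without these and PBS knockout replicate 3 (0.0288). Il27ra stayed lower (log2 fold change −0.87 to −0.57, adjusted p 0.18 to 0.856). Counts below are genes that differed in LT-HSC (higher, lower), with 136 (100, 36) as reported, then the interaction with 21. DESeq2 gave 436 (288, 148) and 58, no filter on low counts 496 (316, 180) and 129, and the compared groups alone 37 (5, 32) and 0. Upper-quartile scaling gave 136 (100, 36) and 20, a mean of at least 10 counts as filter 130 (103, 27) and 25, and the test without its robust option 127 (93, 34) and 19. Limma-voom with sample weights gave 68 (0, 68) and 3, libraries under 4000000 counts 16 (6, 10) and 1, thinning to the lowest total 102 (70, 32) and 8, and a Y-linked covariate 79 (59, 20) and 22. A block by replicate number, which samples share without any stated pairing, gave 39 (28, 11) and 10; pairs of equal number correlated at 0.016 and −0.021 across genes. Without PBS knockout LT-HSC replicate 2 the counts were 197 (141, 56) and 18, without Ang II knockout LT-HSC replicate 2 they were 166 (119, 47) and 16, and without both 357 (237, 120) and 18. Without PBS knockout LT-HSC replicate 3 they were 90 (60, 30) and 12, and without all 3 of these libraries 292 (186, 106) and 15. Without the library labelled LT-HSC, PBS, WT they were 145 (107, 38) and 21. HPC-1, with 0 by edgeR, had 2 by DESeq2, 33 without a filter and 11 by limma-voom. Leaving out each compared library in turn (other libraries only as named here) gave 53 to 565 genes (40 to 436 higher, 13 to 129 lower), 8 to 97 for the interaction and 0 to 0 in HPC-1. Named genes that no longer passed were, by DESeq2, Car4, Clca4a, Krt19, Krt20, Lypd8, Muc2, Mvk and Spink4; with the Y-linked covariate Car4, Clca4a, Epcam, Fcgbp, Lypd8, Spink4 and Tspan1; with the replicate block Car4, Clca3b, Clca4a, Epcam, Fcgbp, Krt19, Krt20, Muc3, Mvk, Myh11, Spink4 and Tspan1. After thinning these were Car4, Krt20 and Tspan1, without the robust option Car4 and Clca4a, without PBS knockout replicate 3 Car4, Epcam and Fcgbp, and without the library labelled LT-HSC, PBS, WT Car4, Clca4a and Spink4. In the compared groups alone Epcam, Tspan1 and all named higher genes but Dynlt1b, Zfp58 and Ttc30b no longer passed, and by limma-voom no named higher gene passed. In libraries under 4000000 counts only Agr2, Clca1, Clca4b, Dmbt1, Dsp, Dynlt1b, Lypd8, Muc2, Zfp58 and Zkscan3 still did. DESeq2 gave no adjusted p for S100a9, Lyz2 and Prg2. The cause of these moves was not tested. The fits without the library labelled LT-HSC, PBS, WT, without Ang II knockout LT-HSC replicate 2, without both replicates 2, without PBS knockout replicate 3 and without all 3 were chosen after seeing the data. At these depths, levels under the floors could not be told from 0.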
